A study of Homo sapiens with 4 samples.

Results

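The genes described here encode the proteins of the cytosolic ribosome. They are the entries of the expression tables whose symbol is RPL or RPS with digits and at most one further letter A, L or X, together with RPLP0, RPLP1, RPLP2 and RPSA. This gave 82 of the 60487 genes listed, 49 of the large subunit and 33 of the small subunit. Symbols ending in P and digits, the named pseudogenes, do not match. RPS10L matches by its symbol, although GENCODE 29 annotates it as a processed pseudogene, and the other 81 are annotated as protein-coding.

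RNA was measured in HCC1937, an established human breast cancer cell line. The cells carried wild-type BRCA1 (wtBRCA1, labelled wild type) or a vector (labelled BRCA1 -/-), and each line was given OTX-015, an inhibitor of the BET bromodomain proteins that read acetylated histones, or DMSO, its solvent. The 4 groups were thus wtBRCA1 with OTX-015, wtBRCA1 with DMSO, vector with OTX-015 and vector with DMSO, with 1 poly(A)-selected library each. Dose, time, and whether each line is 1 clone are not given in the sources used here.

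A ribosome is built from ribosomal RNA and one copy of most ribosomal proteins, so cells keep the supply of these proteins close to balance. Their messenger RNAs are among the most abundant in dividing cells. In vertebrates most of them start with a C followed by a run of pyrimidines, the 5′ terminal oligopyrimidine (TOP) tract, through which the kinase mTOR and the protein LARP1 control their translation. The human genome also carries many processed pseudogenes copied from these messenger RNAs, and some members have tissue-restricted paralogs.

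The TOP tract can be read from the start sites. RefSeq start-site sequences (GRCh38.p14) were at hand for 64 of the 82 genes. A run of at least 5 bases that begins with C at the annotated start and holds only C or T was present in 46 of the 64 (71.9%), against 5.14% of all 27305 genes with an entry. The run was 5 to 19 bases long, with a median of 8. The stretch from 250 bases before to 50 bases after the start was also searched on both strands for CCGGAAG, a core that ETS family factors bind. This motif was found in 35.9% of the 64 genes and in 12.2% of all genes. The motif of the TATA box, spelled TATAAA and searched in the same way, was found in 9.38% of the 64 and in 14.0% of all genes. The sequences below are those of genes the results turn on. Each runs 5′ to 3′ from 20 bases before the start to 10 bases from it, and capitals mark the tract within those 10 bases.
RPS21 (chr20:62387083-62387112, plus strand): tgccgggtgactagctgcttCCTTTCTCTC
RPL28 (chr19:55385912-55385941, plus strand): tcgcctcgcccctcgccttcCTCTTTCCgt
RPL36 (chr19:5690275-5690304, plus strand): gagttccgcgcggcgccagcCCTTCCgcca
RPL34 (chr4:108620556-108620585, plus strand): ctggcaaaggcttttttcttCCTCTTCCgg
RPSA (chr3:39406700-39406729, plus strand): cgtcatttcctgccgcctgtCTTTTCCgtg
RPS13 (chr11:17077658-17077687, minus strand): ggcgtttccactctcgctctCCTTTCgttg
RPLP2 (chr11:809947-809976, plus strand): gcctcttgcgtcggcgccttCCTTTTCCTC
RPS24 (chr10:78033843-78033872, plus strand): ttggccggcgaatcgtggttCTCTTTTCCT
RPL27 (chr17:42998399-42998428, plus strand): cctcaccggggtgaaaggttagcggaagtg
RPS29 (chr14:49598701-49598730, minus strand): ttttcccccgagcgcgcagctggcagcggt
RPL10L (chr14:46651772-46651801, minus strand): gcgcgcaggcgtagttaagagagcgcattt
The first 8 begin with the tract. In RPL27, RPS29 and the paralog RPL10L the annotated start falls at another letter, which says only that these letters are not at that start. The genes that differed below thus include starts of both kinds.

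As a group the ribosomal protein genes summed to 40826.9 FPKM (fragments per kilobase of transcript, scaled to the mapped fragments of the library) in wtBRCA1 cells under OTX-015 and 35219.3 under DMSO. In vector cells the sum was 49144.5 FPKM under OTX-015 and 51747.1 under DMSO. As a share of all FPKM in the library this was 2.76% and 3.66% in the OTX-015 and DMSO libraries of wtBRCA1 cells, and 3.28% and 5.69% in those of vector cells. Without the 10 highest genes of each library the shares were 4.17% and 4.32% in wtBRCA1 cells and 5.40% and 5.54% in vector cells, but RPS21 is one of the 10 left out in the DMSO library of vector cells and in no other. With RPS21 left out of every library as well, the shares were 3.81% and 3.87% in wtBRCA1 cells and 4.53% and 5.54% in vector cells, so the OTX-015 and DMSO libraries lay close together in wtBRCA1 cells and not in vector cells. The 10 highest genes held 33.8% of all FPKM in the OTX-015 library and 15.3% in the DMSO library of wtBRCA1 cells, and 39.2% and 17.4% in those of vector cells. The median gene of the group stood at 104 and 93.6 FPKM in wtBRCA1 cells and at 126 and 186 FPKM in vector cells, under OTX-015 and DMSO. The depth of the libraries is unknown, and without a repeat no value here carries an error between cultures. BRCA1, the introduced gene, was listed at 2712 and 171 FPKM in the OTX-015 and DMSO libraries of wtBRCA1 cells and at 40.8 and 37.2 FPKM in those of vector cells. All 6 breast epithelial markers checked were at 1 FPKM or more in each library, as were 1 of 5 fibroblast markers (COL1A1), 1 of 5 leukocyte markers (CD68) and 0 to 2 of 4 endothelial markers.

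The listed levels of these genes ran from 0 to 10147 FPKM. RPS21, a small subunit protein, was the highest by mean level, with 3728 and 3846 FPKM in wtBRCA1 cells under OTX-015 and DMSO and 8319 and 10147 FPKM in vector cells. It made up 9.13% and 10.9% of the group's FPKM in wtBRCA1 cells and 16.9% and 19.6% in vector cells. The wtBRCA1 libraries were both below both vector libraries. RPL28, a large subunit protein, followed with 4202 and 2473 FPKM in wtBRCA1 cells and 5390 and 3129 FPKM in vector cells, the OTX-015 library being above the DMSO library in each line. RPS16 was listed at 4496 and 3392 FPKM in wtBRCA1 cells and at 3446 and 3027 in vector cells. RPL8, which lies at the peptidyl transferase centre, had 3925 and 2895 FPKM in wtBRCA1 cells and 4008 and 2800 in vector cells. Both were higher under OTX-015 in each line. RPL38 varied little, with 3647 and 3438 FPKM in wtBRCA1 cells and 2965 and 2862 in vector cells. RPLP2 completed the 6 highest, which together held between 48.9% and 56.7% of the group's FPKM in each library.

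**Figure D1:**
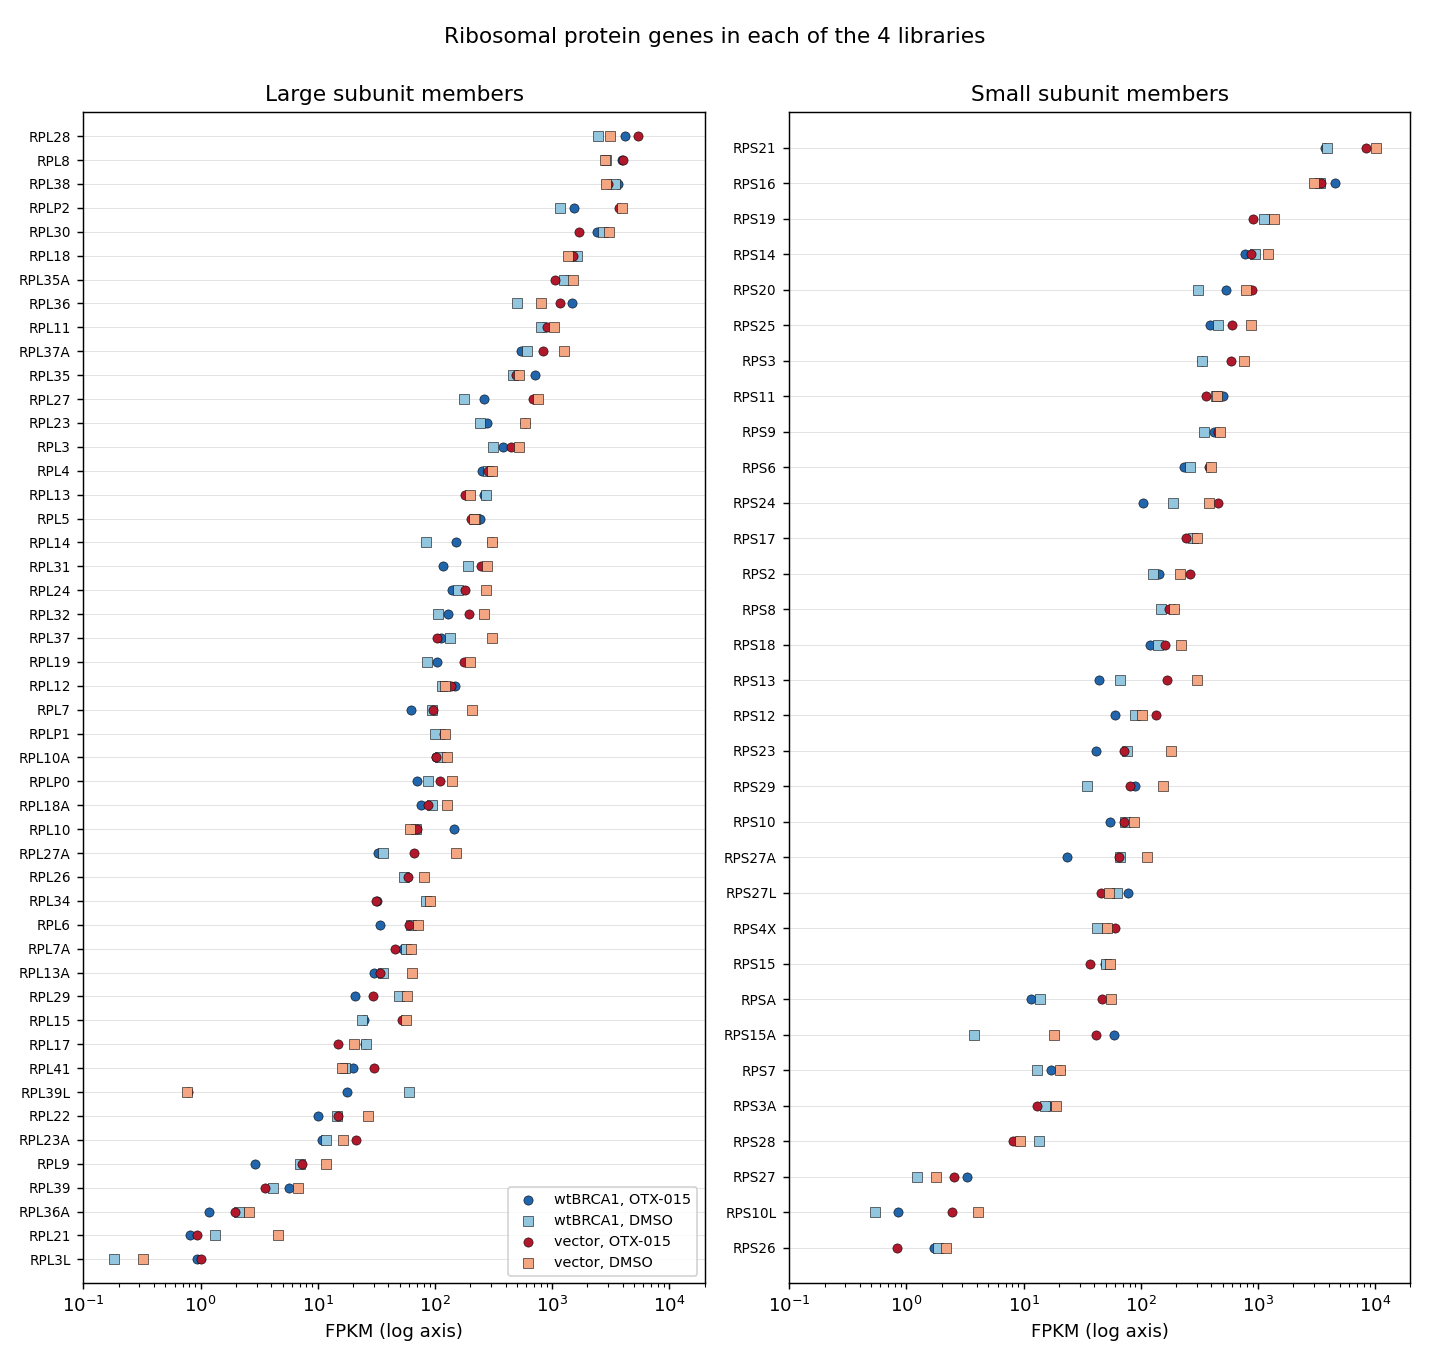
FPKM (log axis) of the ribosomal protein genes in wtBRCA1 cells under OTX-015 (dark blue circles) and DMSO (light blue squares) and in vector cells under OTX-015 (dark red circles) and DMSO (light red squares), 1 library each, sorted by mean level. RPL10L, at 0 in all 4 libraries, and 1 gene not reported by name are left out; RPS21 reaches 10147 FPKM in vector cells under DMSO while RPL3L stays near or under 1.01.

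At the other end stood paralogs and some genes with many copies. RPL10L, the testis-expressed paralog of RPL10, was listed at 0 in all 4 libraries and was the only one of the 82 under 1 FPKM in each, so 81 passed the minimum of 1 FPKM in a library used below. RPL3L, the muscle paralog of RPL3, was listed at 0.927 and 0.181 FPKM in the OTX-015 and DMSO libraries of wtBRCA1 cells and at 1.01 and 0.324 in those of vector cells. Its common counterpart RPL3 had 380 and 312 FPKM in wtBRCA1 cells and 444 and 523 in vector cells. For these pairs the paralog was thus near or at 0 where the common form was well above it. RPL10 itself had 144 and 69.2 FPKM in wtBRCA1 cells and 69.5 and 60.8 in vector cells. RPS27L, a paralog of RPS27 known as a p53 target, had 77.2 and 62.6 FPKM in wtBRCA1 cells and 45.6 and 53.9 in vector cells. RPS27 was listed lower than its paralog in each library, at 3.27 and 1.24 FPKM in wtBRCA1 cells and 2.53 and 1.80 in vector cells. RPL39 was likewise low, at 5.73 and 4.17 FPKM in wtBRCA1 cells and 3.52 and 6.77 in vector cells, and the X-linked RPL36A had 1.18 and 2.12 FPKM in wtBRCA1 cells and 1.94 and 2.56 in vector cells.

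Low listed levels went with shared sequence. For each gene, the share of all stretches of 50 bases in its transcript with the longest coding sequence (the shortest such transcript) that also occur in its own named pseudogenes was computed from GENCODE 29. The 19 genes that share none of these stretches had a median level of 889 FPKM over the 4 libraries, and the 23 that share up to 10% had 176. The median was 102 FPKM for the 23 that share 10% to 50% and 39.2 for the 15 that share more. For some genes the transcript taken is long and mostly non-coding, which can lower the share. That of RPL37 has 7686 bases, 291 of them coding, and a share of 0.45%, yet copies held 27.9% to 38.6% of the summed FPKM. For RPS23 it was 3437 and 429 bases, 5.52%, and 54.5% to 70.2%. Across the 80 genes with a level and a coding transcript, Spearman's rho between level and share was -0.54. These genes are not independent replicates and share the same libraries. For comparison, the rho of level with transcript length was -0.13. The sources used here do not say how the authors' quantification treated reads that fit several places, and the part of such reads in these levels was not tested.

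**Figure D2:**
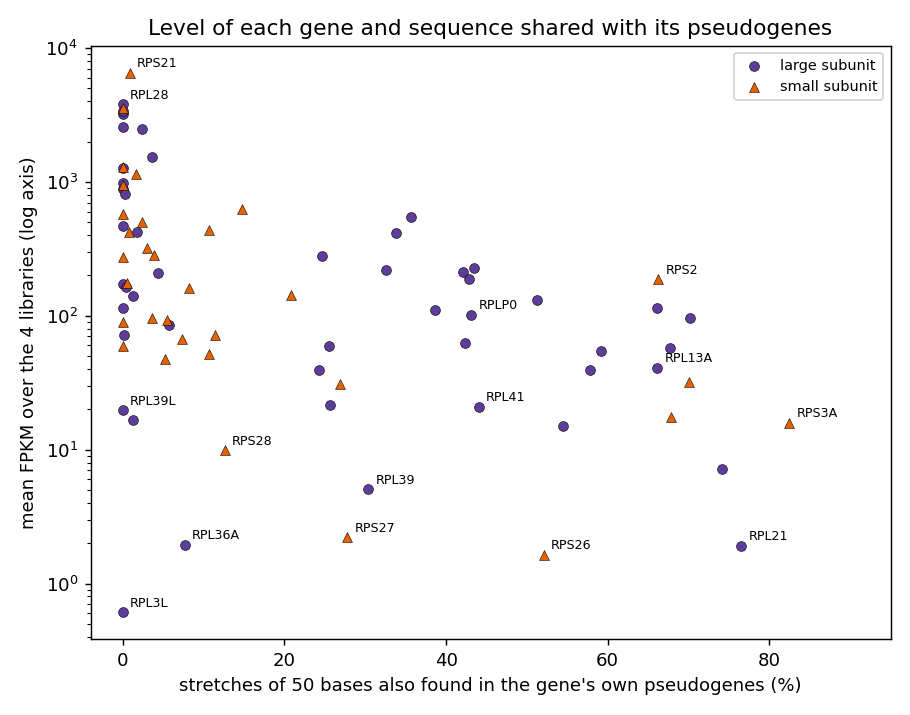
Mean FPKM over the 4 libraries (log axis) of 80 ribosomal protein genes against the percentage of their stretches of 50 bases that are also found in their own pseudogenes. Genes with no such stretch have a median of 889 FPKM and those with more than 50% have 39.2.

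The pseudogenes held a visible part of the signal. Of 1003 pseudogenes named after the 82 genes, 760 were listed at 0 in all libraries and 159 reached 1 FPKM in at least 1. Their FPKM summed to 4822 and 4375 in the OTX-015 and DMSO libraries of wtBRCA1 cells and to 5785 and 6460 in those of vector cells. For single genes the copies held most of it. Of the FPKM of RPL13A and its copies, 91.2% to 94.9% stood in the copies across the 4 libraries, and for RPS28 it was 91.8% to 97.2%. For RPLP0, the protein at the base of the stalk and a common reference gene in expression assays, it was 69.4% to 79.6%. RPS21, RPL28, RPS16, RPL8, RPL38 and RPLP2, the 6 highest, had at most 1.69% in copies.

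The first comparison asked what OTX-015 did to these genes in both lines. RPL28 rose, RPL36 rose, the weakly expressed RPS15A rose, and RPL34, a large subunit protein, fell. The other 77 of the 81 did not pass the test. The test was limma on log2(FPKM + 1) over all 18295 genes kept, with terms for line and treatment and Benjamini-Hochberg adjustment at 0.05; with 1 library a group it measures agreement between the lines, not the spread between cultures. Of all 18295 genes, 3.66% rose and 2.67% fell, and among the 3190 genes within the interquartile range of the group's mean levels 8.09% rose and 4.08% fell. The 3 of 81 that rose and the 1 of 81 that fell are thus close to or under the background. In bulk RNA, fewer cells with a transcript and less RNA per cell cannot be told apart. Of 13 other settings of the test, RPL34 kept its call in 10, RPL28 in 8, RPL36 in 3 and RPS15A in 2. Scaling each library to the same FPKM sum turned this split to 0 that rose and 11 that fell, and moved the median of all genes to -0.43 in wtBRCA1 cells and -0.48 in vector cells.

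RPL28 was higher under OTX-015 by nearly the same amount in each line, a log2 difference of 0.76 in wtBRCA1 cells and 0.78 in vector cells (0.77 ± 0.13, SE, limma adjusted p = 0.014). RPL36 was listed at 1463 FPKM under OTX-015 and 502 under DMSO in wtBRCA1 cells, and at 1158 and 805 in vector cells. Both OTX-015 libraries were above both DMSO libraries (1.03 ± 0.25 log2, SE, limma adjusted p = 0.0387). RPL34 was listed at 32.1 FPKM under OTX-015 and 83.6 under DMSO in wtBRCA1 cells, and at 31.2 and 90.3 in vector cells. Its OTX-015 libraries lay at about the same level below both DMSO libraries (-1.43 ± 0.30 log2, SE, limma adjusted p = 0.0258).

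RPS15A was listed at 59.5 FPKM under OTX-015 and 3.75 under DMSO in wtBRCA1 cells, and at 41.3 and 18.2 in vector cells (2.40 ± 0.53 log2, SE, limma adjusted p = 0.029). The DMSO library of wtBRCA1 cells stood lowest. Between 54.9% and 94.0% of the FPKM of RPS15A and its copies stood in the copies. With the copies added the sums were 132 and 62.7 FPKM in wtBRCA1 cells and 124 and 125 in vector cells, the differences were 1.06 and -0.01, and the gene no longer passed the test. A neighbouring transcript on the same strand, RP11-1035H13.3, overlaps it and reached 48.4 FPKM.

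Other genes were higher in both lines without passing. RPL8 had log2 differences of 0.44 in wtBRCA1 cells and 0.52 in vector cells (limma adjusted p = 0.0708). RPL10, an X-linked large subunit protein, had 1.05 and 0.19. RPS20 was listed at 538 and 308 FPKM under OTX-015 and DMSO in wtBRCA1 cells and at 885 and 782 in vector cells. RPS27 had log2 differences of 0.93 in wtBRCA1 cells and 0.33 in vector cells, RPL3L of 0.71 and 0.60, and both lie near the minimum level. With its copies added RPS27 had 0.89 in wtBRCA1 cells and -0.45 in vector cells, so the sign turned in vector cells. RPL41, which encodes a very short basic peptide, was listed at 19.8 and 17.0 FPKM under OTX-015 and DMSO in wtBRCA1 cells and at 30.4 and 16.2 in vector cells. RPL14 differed by 0.84 in wtBRCA1 cells and by 0.01 in vector cells, and by 0.28 and -0.14 with its copies added. In RPL10, RPS20, RPL41 and RPL14 most of the difference was in 1 of the lines.

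On the lower side stood several genes that missed the threshold. RPS27A, which is made as a fusion with ubiquitin and so also supplies it, was listed at 23.3 FPKM under OTX-015 and 65.9 under DMSO in wtBRCA1 cells, and at 65.0 and 114 in vector cells (-1.13 ± 0.31 log2, SE, limma adjusted p = 0.0645). RPS23, at the decoding centre, had 41.3 and 75.7 FPKM in wtBRCA1 cells and 72.3 and 179 in vector cells (limma adjusted p = 0.0592). Its log2 differences were -0.86 in wtBRCA1 cells and -1.30 in vector cells, and -0.38 and -0.71 with its copies added. RPL29 had 20.8 and 48.8 FPKM in wtBRCA1 cells and 29.7 and 57.8 in vector cells (limma adjusted p = 0.0776). In all 3 the OTX-015 library was below the DMSO library of the same line. RPL37 was listed at 113 and 135 FPKM in wtBRCA1 cells and at 103 and 304 in vector cells, so most of its difference was in the vector line. RPL7 had 62.4 and 93.6 FPKM in wtBRCA1 cells and 95.6 and 207 in vector cells. Its log2 differences were -0.58 in wtBRCA1 cells and -1.11 in vector cells, and -0.20 and -0.32 with its copies added. RPL9 and RPL21 are both low, and 74.1% and 76.5% of their stretches of 50 bases also occur in copies. RPL9 was listed at 2.94 and 7.01 FPKM in wtBRCA1 cells and at 7.29 and 11.6 in vector cells. With its copies added the log2 differences of RPL9 were 0.14 in wtBRCA1 cells and -0.45 in vector cells, so the sign turned in wtBRCA1 cells. RPL21 was listed at 0.819 and 1.33 FPKM in wtBRCA1 cells and at 0.930 and 4.60 in vector cells. Its log2 differences were -0.36 in wtBRCA1 cells and -1.54 in vector cells, and -0.29 and -0.77 with its copies added.

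**Figure D3:**
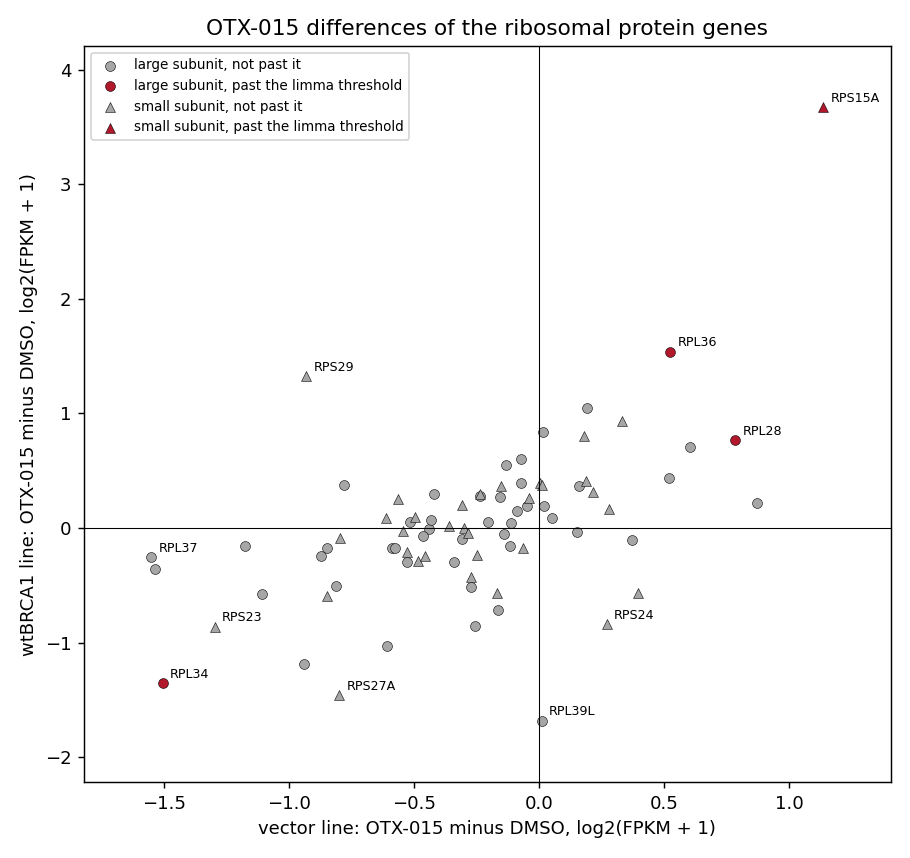
Log2(FPKM + 1) difference, OTX-015 minus DMSO, of 81 ribosomal protein genes in wtBRCA1 cells (vertical axis) against vector cells (horizontal axis); circles are large and triangles small subunit genes, red where the limma test was passed. RPS15A, RPL36 and RPL28 lie high in both lines, RPL34 lies at -1.35 and -1.50, and RPS29 differs in sign.

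Read over the group, the median log2 difference was -0.00 in wtBRCA1 cells and -0.25 in vector cells, where that of all genes was 0.00 in both and that of the 3190 genes of like level, within the interquartile range above, 0.16 and 0.12. These medians moved with the scaling, to -0.21 and -0.45 under quantile normalization and to -0.60 and -0.95 with library sums made equal. In both lines 18 genes were higher and 36 lower, and 27 had opposite signs. Of all genes, 33.0% were higher and 30.2% lower in both lines, against 22.2% and 44.4% of the group. A log2 difference of at least 1 was reached by 4 genes upward and 5 downward in wtBRCA1 cells (13% and 13.4% of all genes), and by 1 upward and 6 downward in vector cells (13% and 12.7% of all genes). Among the genes of like level the shares were 13% upward and 6.87% downward in wtBRCA1 cells and 12.5% and 7.84% in vector cells, so the downward counts of the group lay near that background and the upward counts below it, with no test of the gap. The mitochondrial ribosomal protein genes, which serve the ribosome of the organelle, had medians of -0.29 in wtBRCA1 cells and -0.67 in vector cells, and 12 of their 77 fell and 0 rose. The gap between the 2 sets was not tested.

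The second comparison asked how cells with wtBRCA1 differ from vector cells under both treatments. RPS13, RPSA and RPL27 fell by more than 1.7 log2 units, 14 genes fell in all, and RPL39L, a testis-enriched paralog of RPL39, rose. The other 66 did not pass the test. The genes that fell were 8 of the 33 small subunit genes and 6 of the 48 tested large subunit genes. The 14 of 81 stand against 3.41% of all genes that fell, or 4.89% within the interquartile range of the group's levels, and the 1 that rose stands against 4.88% and 7.21%. Several of the 14, among them RPS21 and RPLP2, lie above that range, where the SE of the fit is smaller. It was 0.13 for RPS21 and 0.17 for RPLP2, and at least 0.22 for genes within the range. No background at the level of these higher genes was computed. When each library was scaled to the same FPKM sum 7 fell, and without limma's mean-variance trend 0 fell, with RPL39L still past the threshold. Of 13 other settings, RPL39L kept its call in 12, 7 of the genes that fell in 11, and RPS25 and RPL37A in 2 and 4.

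RPSA, a small subunit protein also known as the laminin receptor, was listed at 11.5 and 13.7 FPKM in wtBRCA1 cells under OTX-015 and DMSO, against 46.8 and 55.8 in vector cells (-1.94 ± 0.33 log2, SE, limma adjusted p = 0.00734). RPS13 had 43.7 and 66.3 FPKM in wtBRCA1 cells, against 166 and 299 in vector cells (-2.03 ± 0.27 log2, SE, limma adjusted p = 0.00268). RPS24, mutated in some families with Diamond-Blackfan anaemia, had 104 and 187 FPKM in wtBRCA1 cells, against 458 and 379 in vector cells. In each of the 3 genes the 2 lines did not overlap. Of the FPKM of RPSA and its copies, 72.4% to 82.4% stood in the copies, and the copies were also lower in wtBRCA1 cells: the sums were 65.2 and 62.2 FPKM in wtBRCA1 cells, against 182 and 202 in vector cells.

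RPS21, the most abundant of the group, differed by -1.16 under OTX-015 and -1.40 under DMSO (-1.28 ± 0.13 log2, SE, limma adjusted p = 0.000506). RPS3, which lines the entry of the messenger RNA channel, had 335 and 330 FPKM in wtBRCA1 cells, against 589 and 757 in vector cells. RPS20 and RPS25 fell too, by 1.03 and 0.79 log2 units, RPS25 with an adjusted p of 0.0494 in limma. RPS6, the substrate of the S6 kinases downstream of mTOR, had 234 and 264 FPKM in wtBRCA1 cells, against 383 and 400 in vector cells. It missed the threshold (-0.65 ± 0.23 log2, SE, limma adjusted p = 0.116).

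Of the stalk proteins, which recruit the elongation factors, RPLP2 fell. It had 1531 and 1165 FPKM in wtBRCA1 cells, against 3733 and 3926 in vector cells (-1.52 ± 0.17 log2, SE, limma adjusted p = 0.000991). RPLP0 had 70.3 and 86.7 FPKM in wtBRCA1 cells, against 110 and 140 in vector cells. RPLP1 had 114 and 99.7 FPKM in wtBRCA1 cells, against 118 and 122 in vector cells. Neither passed the test, with limma adjusted p of 0.182 for RPLP0 and 0.745 for RPLP1, and the gap to RPLP2 was not tested. With its copies, which hold most of its FPKM, added, RPLP0 summed to 320 and 283 FPKM in wtBRCA1 cells, against 540 and 554 in vector cells, with differences of -0.75 and -0.97, and passed the test.

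RPL27 had 260 and 178 FPKM in wtBRCA1 cells, against 687 and 753 in vector cells (-1.74 ± 0.24 log2, SE, limma adjusted p = 0.00312). RPL14 had 152 and 84.5 FPKM in wtBRCA1 cells, against 308 and 305 in vector cells. RPL27A had 32.3 and 36.1 FPKM in wtBRCA1 cells, against 66.1 and 150 in vector cells. All 3 were lower in both wtBRCA1 libraries than in either vector library. A transcript on the same strand, RP11-152H18.3, overlaps RPL27A and reached 86.8 FPKM, and its part in the level of RPL27A was not tested. RPL23 and RPL37A fell too, by 1.17 and 0.84 log2 units. RPL5 and RPL11, which with a small ribosomal RNA form the particle that can bind MDM2 and so stabilise p53, did not pass the test. RPL5 had 242 and 218 FPKM in wtBRCA1 cells, against 203 and 216 in vector cells, and RPL11 had 829 and 799, against 896 and 1032.

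RPL39L was listed at 17.9 FPKM under OTX-015 and 59.6 under DMSO in wtBRCA1 cells, against 0.772 and 0.761 in vector cells (4.26 ± 0.45 log2, SE, limma adjusted p = 0.000833). It is the paralog of a protein that lines the exit tunnel of the large subunit, and the listed level of RPL39 was below that of RPL39L in both wtBRCA1 libraries and above it in both vector libraries. With its copies added RPL39 summed to 20.3 and 12.4 FPKM in wtBRCA1 cells, against 39.0 and 25.3 in vector cells, which turns the order in wtBRCA1 cells under OTX-015. Next in order were RPL10, with differences of 1.04 under OTX-015 and 0.18 under DMSO, and RPL17, with 0.74 and 0.31. RPL17 was listed at 25.4 and 25.5 FPKM in wtBRCA1 cells, against 14.8 and 20.4 in vector cells. RPS27L had differences of 0.75 and 0.21. RPL13 was listed at 260 and 270 FPKM in wtBRCA1 cells, against 181 and 200 in vector cells. RPS28 was listed at 8.72 and 13.4 FPKM in wtBRCA1 cells, against 8.18 and 9.31 in vector cells. With its copies added the line differences of RPS28 were -0.01 under OTX-015 and -0.13 under DMSO. RPL38 had differences of 0.30 under OTX-015 and 0.26 under DMSO, and RPS16 of 0.38 and 0.16. None of these 7 passed the test, with limma adjusted p of 0.259 or more.

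RPS10L, the entry annotated as a processed pseudogene, had 0.843 and 0.544 FPKM in wtBRCA1 cells, against 2.46 and 4.11 in vector cells, and missed the threshold of limma (adjusted p = 0.139). With the FPKM of their pseudogenes added to their own, RPL15, RPLP0 and RPS23 passed the test downward as well.

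**Figure D4:**
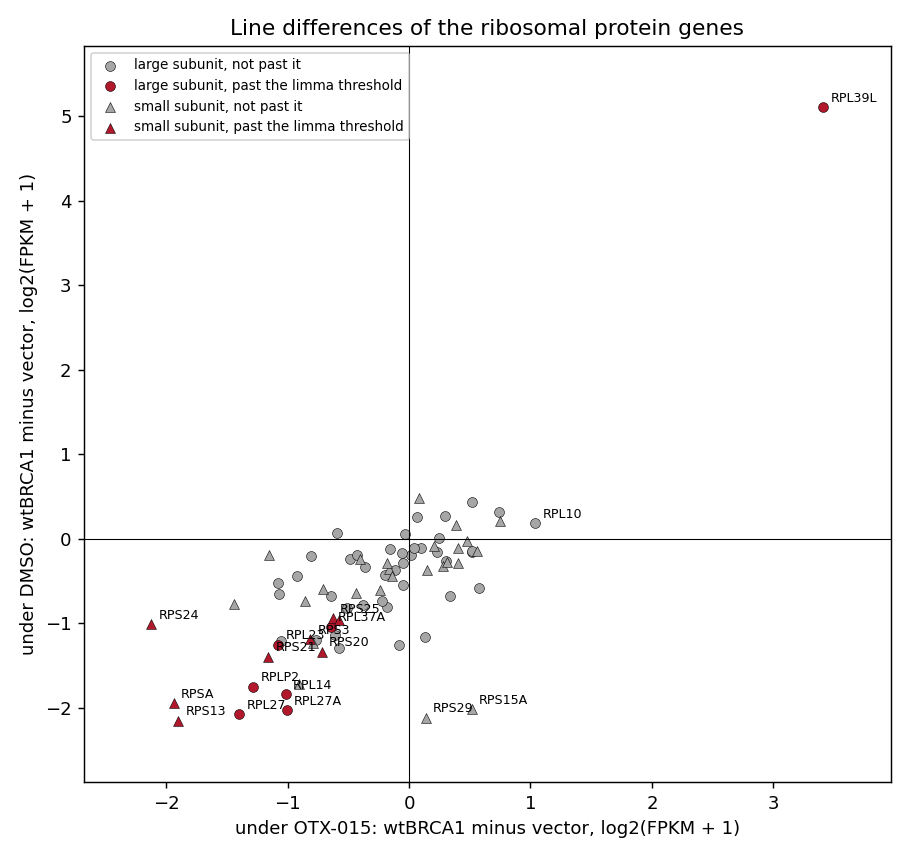
Log2(FPKM + 1) difference, wtBRCA1 minus vector, of 81 ribosomal protein genes under OTX-015 (horizontal axis) and under DMSO (vertical axis); circles are large and triangles small subunit genes, red where the limma test was passed. RPL39L stands at 3.41 and 5.10, and the 14 genes that fell lie below 0 on both axes.

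Over the group the line difference was negative, more so under DMSO. The median was -0.18 under OTX-015 and -0.44 under DMSO, where that of all genes was 0.00 and 0.04. In both treatments 49 of the 81 were lower and 10 higher (60.5% and 12.3%), and 22 had opposite signs, against 29.7% lower and 34.5% higher among all genes. A difference of at least 1 log2 unit downward was seen for 14 genes under OTX-015 and 22 under DMSO (12.6% and 11.7% of all genes, 7.27% and 7.93% of those of like level), and upward for 2 and 1 (15% and 14.8%, and 11.8% and 10.9%). The small subunit median was -0.24 under OTX-015 and -0.59 under DMSO, and the large subunit median -0.17 and -0.40. Other classes of RNA also differed between the lines. Mitochondrially encoded genes held 6.62% and 5.61% of all FPKM in wtBRCA1 cells under OTX-015 and DMSO, against 2.40% and 2.10% in vector cells. Short structural RNA genes held 5.72% and 5.55%, against 2.67% and 2.37%. These classes overlap, since mitochondrial ribosomal and transfer RNA genes are counted in both. Their part in the line difference was not tested.

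Genes that fell lay in stretches of the genome where other genes were lower too. For each gene, the median line difference, averaged over both treatments, of all other genes within 1 Mb at 5 FPKM or more was taken, with the ribosomal protein genes left out. For all 14 genes that fell, which had 3 to 46 neighbours, this neighbour median was below 0, and for 13 below -0.5, a limit chosen after the values were seen. Of the 67 others with neighbours, 22 had a neighbour median below 0 and 5 below -0.5. Over the 58 genes with at least 10 neighbours, the gene's own difference and the neighbour median had a Pearson's r of 0.63 and a Spearman's rho of 0.77, and 0.80 and 0.76 without RPL39L. Some of these genes share neighbours. For 3088 other genes at 50 FPKM or more the same values were 0.48 and 0.57, so the relation was not confined to ribosomal protein genes, and the gap was not tested. For the OTX-015 difference, r was -0.09 and rho 0.20 over the 58 genes. Over the 3088 other genes they were 0.16 and 0.13, and this gap was not tested either.

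The line differences were also read by chromosome, with 1 to 12 of the genes on each. All 5 genes on chromosome 11 were lower in wtBRCA1 cells, with a median of -1.52. They are RPLP2, RPL27A, RPS13, RPS3 and RPS25, each of which fell. All 4 on chromosome 2 (median -0.82), all 4 on chromosome 6 (-0.43) and all 3 on chromosome 5 (-0.51) were lower too. So were the 2 on chromosome 20 (-1.30). The share of all genes of a chromosome that were lower was not computed. For RPLP2 (chromosome 11, 809647 to 812880, GENCODE 29, hg38) 34 of 38 neighbours were lower in wtBRCA1 cells, with a median of -1.43. For RPL27 (chromosome 17, 42998273 to 43002959) it was 40 of 46, with a median of -0.89. The nearer end of BRCA1, the 3′ end of that gene, lies 41336 bases beyond the end of RPL27. On chromosome 19, which holds 12 of the genes, 6 were lower and the median was -0.06. RPL13 on chromosome 16 had 0 of 42 neighbours lower, with a neighbour median of 1.02, and its own differences were 0.52 and 0.43. RPL39L, at 4.26, had a neighbour median of 0.49. The part of the position in the genome in these differences was not tested.

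**Figure D5:**
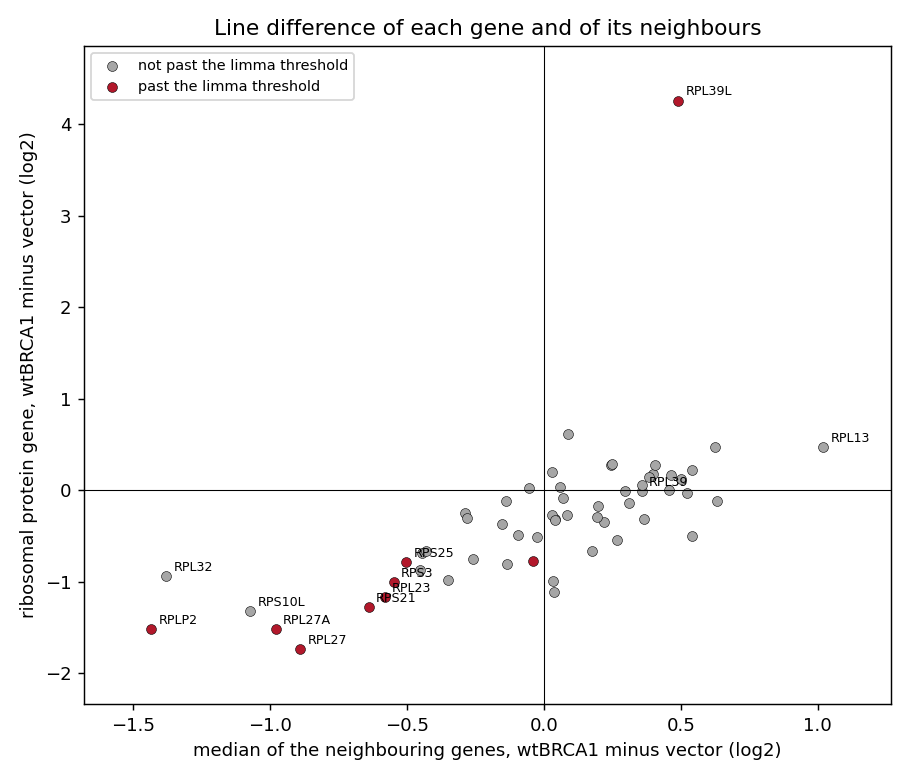
Line difference of 58 ribosomal protein genes (vertical axis, mean log2(FPKM + 1) difference over both treatments, wtBRCA1 minus vector) against the median of their neighbours within 1 Mb (horizontal axis), red where the limma test was passed. RPLP2 and RPL27A lie low on both axes, RPL13 lies high on the horizontal axis, and RPL39L stands apart at 4.26.

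The third comparison set the OTX-015 responses of the lines against each other. It has no test, since each response rests on 1 pair of libraries. The response in wtBRCA1 cells was above that in vector cells for 62 of the 81 genes, with a median of 0.30 against -0.01 for all genes. It was above for 9002 of all 18295 genes, and for 1694 of the 3190 of like level (median 0.05). Related sets had a like shift: 51 of 77 mitochondrial ribosomal protein genes (median 0.28) and 106 of 159 ribosomal protein pseudogenes (0.34). The gaps between these sets were not tested. Both responses and the line differences use the same 4 libraries. RPS15A (2.54), RPS29 (2.26), RPL37 (1.29), RPL21 (1.18) and RPL39 (1.16) had the highest values, and RPL39L (-1.69), RPS24 (-1.11), RPS12 (-0.96), RPS27A (-0.66) and RPL41 (-0.65) the lowest. A difference of at least 1 was reached by 7 genes upward and 2 downward (13.2% and 14% of all genes, 7.3% and 6.14% of those of like level).

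RPS29, a zinc-binding small subunit protein mutated in some families with Diamond-Blackfan anaemia, was listed at 88.4 FPKM under OTX-015 and 34.7 under DMSO in wtBRCA1 cells, and at 80.4 and 154 in vector cells. The OTX-015 libraries were alike and the DMSO libraries stood apart from them in opposite directions. RPS12 had 60.0 and 89.2 FPKM in wtBRCA1 cells and 135 and 102 in vector cells. RPS24 had log2 differences of -0.84 in wtBRCA1 cells and 0.27 in vector cells. RPL39 had 0.38 and -0.78, but 0.67 and 0.60 with its copies added.

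The lists of related genes are read against the same background, 3.66% that rose and 2.67% that fell for OTX-015, and 4.88% and 3.41% for the line. Of the 7 ribosomal proteins with other names (among them FAU, RACK1 listed as GNB2L1, and L1-type paralogs), 0 passed limma for OTX-015 and 0 for the line. At an unadjusted p under 0.05, 1 was lower for OTX-015, and 1 was higher and 1 lower for the line. At that unadjusted limit the background is wider. Of all 18295 genes, 2303 were higher and 1867 lower for OTX-015, and 2414 and 1879 for the line. The unadjusted counts of these lists were not tested against it. GNB2L1, the scaffold on the small subunit, had 2487 and 1951 FPKM in wtBRCA1 cells under OTX-015 and DMSO and 2488 and 2446 in vector cells. Of 17 other messenger RNAs that carry a TOP tract, 1 rose and 2 fell under OTX-015. EEF2, the translocation factor, rose (802 and 493 FPKM under OTX-015 and DMSO in wtBRCA1 cells, 842 and 431 in vector cells), and EEF1G and EIF3E fell. For the line, 1 of the 17 fell, EIF3F, at 3.41 and 2.38 FPKM in wtBRCA1 cells, against 19.2 and 33.8 in vector cells. Of 12 genes of mTOR and TOP control, 0 passed limma in either comparison, with 3 at an unadjusted p under 0.05 for OTX-015 and 0 for the line. LARP1 had 32.4 and 106 FPKM in wtBRCA1 cells under OTX-015 and DMSO and 96.1 and 60.9 in vector cells. Of 9 genes listed as chaperones of ribosomal proteins in a broad sense, NACA and BTF3 among them, 0 passed for OTX-015 (2 at an unadjusted p under 0.05). AAMP, also on that list, fell for the line, at 64.0 and 41.6 FPKM in wtBRCA1 cells, against 129 and 104 in vector cells.

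Within 28 of the genes lie 60 annotated small nucleolar RNAs, which guide modification of ribosomal RNA and are released from introns. All were listed at 0 in every library except those within RPL17, which summed to 7383 FPKM in vector cells under OTX-015 and to 0 elsewhere. Poly(A) selection enriches for messenger RNA, and the part of these RNAs in the level of RPL17, which was lowest in that library at 14.8 FPKM, was not tested.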

How the data were processed

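RNA of 4 groups was sequenced, 1 library each. The deposited values are FPKM per gene; the submitters' processing notes name TopHat2, Cufflinks and the build hg38. Versions, annotation and the handling of strand and of reads that fit several places are not given in the sources used here. Libraries came from poly(A)-selected RNA and a directional kit, per the labels' protocols. Depth is unknown.

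The libraries were joined on the Ensembl identifier, and GENCODE 29 holds 94.2% of them. After removal of 7513 genes of short structural RNA, rows with a common symbol were added up (68 symbols). Genes at 1 FPKM or more in at least 1 library (18295) were analysed as log2(FPKM + 1), a scale that understates the change of low genes. limma (3.58.1, R 4.3.3) was fitted with line and treatment as terms, a mean-variance trend and Benjamini-Hochberg adjustment at 0.05, and was tested on simulated data. It leaves 1 residual degree of freedom, which holds the difference between the responses. Rose and fell refer to this fit. Single pairs had no test, and a log2 difference of at least 1 is counted.

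Genes with values in every library were the 10 highest and 10 lowest for OTX-015, 8 and 8 for the line, 5 and 5 for the difference of responses, the 6 highest by level, those under 1 FPKM throughout, and the stalk, MDM2-binding, S6, ubiquitin fusion and paralog genes. Some genes counted here are not reported by name. The genes, lists and tests were chosen with earlier results of these data known. Alternatives covered pseudocount, filter, scaling, pseudogenes, model terms and leaving out each library. Tables were handled in Python 3.11.15 (numpy 2.4.6, pandas 2.3.3, scipy 1.17.1), and matplotlib 3.10.9 drew the plots.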

Additional observations from a re-analysis of the deposited data

Results flagged for a closer look

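In 4 genes the OTX-015 difference had opposite signs in the 2 lines and the responses differed by at least 1 log2 unit. The wtBRCA1 response minus the vector response was 2.26 for RPS29, 1.16 for RPL39, -1.11 for RPS24 and -1.69 for RPL39L. The difference was not tested, since each response rests on 1 pair of libraries. RPL39L was near 0.77 FPKM in both vector libraries, with a log2 difference of 0.01 there, so its sign in that line carries little. Of RPL39 and its copies, 66.4% to 91.0% of the FPKM stood in the copies, and with them added its OTX-015 differences were 0.67 in wtBRCA1 cells and 0.60 in vector cells, of the same sign.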

How the results depend on the processing

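With 1 library per group no spread between cultures can be given, reads shared with pseudogenes cannot be divided again, and calls depend on pooling the spread over genes. No paired analysis was possible because each group has 1 library and so no replicate numbers to pair, apart from the term for the line, through which the test itself sets OTX-015 against DMSO within each line. For OTX-015, the 3 genes that rose became 1 with a pseudocount of 0.1 or 5, an FPKM filter of 5, median-of-ratios scaling, short structural RNA genes kept or robust estimation, and 0 with library sums made equal (TPM scaling), quantile normalization, no trend or no term for the line. The 1 that fell became 6 with no filter, 11 with TPM scaling and 0 with no trend or no term for the line. For the line, the 14 that fell became 9 with a pseudocount of 5 or a filter of 5, 7 with TPM scaling and 0 with no trend, and with no term for treatment both counts were 0. Leaving out 1 library at a time, with the other term dropped, gave 0 to 0 for each of these counts. Of all genes, 669 rose and 488 fell for OTX-015; with all 4 libraries this ranged from 1 and 0 with no term for the line to 1622 and 2082 with no filter. For the line, 893 rose and 623 fell, with 35 and 22 when treatment had no term and 2216 and 1679 with no filter. Leaving out any 1 library gave 0 of all genes for both. RPL28 kept its call in 8 of 13 settings other than leaving out a library, RPL34 in 10, RPL36 in 3 and RPS15A in 2; RPS13, RPSA, RPL27, RPLP2, RPS21, RPS24 and RPL23 kept theirs in 11, RPL39L in 12, RPS25 in 2. None of the 19 called genes changed sign in these settings. The group's OTX-015 median in wtBRCA1 cells was -0.60 under TPM scaling (-0.16 relative to all genes) and -0.21 under quantile normalization, and in vector cells -0.95 (-0.47) and -0.45. The line median under DMSO was -0.59 under quantile normalization, and the median difference of responses 0.40 under TPM scaling. Of protein-coding FPKM the group held 5.48% and 5.91% in wtBRCA1 cells and 7.11% and 8.90% in vector cells under OTX-015 and DMSO. Of the FPKM of the library without its 10 highest genes it held 4.17% and 4.32% in wtBRCA1 cells and 5.40% and 5.54% in vector cells, and with RPS21 left out too, an alternative chosen after seeing the data, 3.81% and 3.87%, and 4.53% and 5.54%. With pseudogenes added to the group, its share of all FPKM was 3.09% and 4.11% in wtBRCA1 cells and 3.67% and 6.40% in vector cells.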
